A study of Mus musculus with 15 samples.

Results

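The change that goes with an Abcb5 mutation was compared between liver and heart of the same mice, as the change in liver (mutant minus wild type) minus the change in heart. All 15 arrays of the study entered this comparison: livers of 4 wild-type and 3 mutant mice, and hearts of 4 of each genotype. Of 25697 probes, 11426 were above background on at least 3 arrays of each tissue, and these probes, standing for 8130 of the 16593 named genes, are the ones described. Another 653 of them had no gene symbol. The rule used detection only and no measure of the genotype. All mice were males of the strain C57BL/6J-Tyr, aged 17 weeks, and the mutants were homozygous for an ABCB5 mutation (Abcb5 is the mouse spelling). By the animal numbers in the labels the arrays came from 8 mice, 7 of them with liver and heart and the remaining mutant with its heart alone. The kind of mutation, the time of day at which tissues were collected and the batches of the arrays were not given in the sources used here. No probe (0) carried the name Abcb5, so the genotype was not checked by the level of the mutated gene.

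Abcb5 belongs to the ABC transporters and is a relative of P-glycoprotein, known from pigment cells and from stem cells of the cornea. Liver and heart each hold a circadian clock, in which Clock and Arntl activate the Per, Cry and Nr1d genes and output factors such as Dbp and Tef, and these act back on the clock. Alas1 limits heme synthesis in most tissues and is under clock control in liver, while its relative Alas2 serves red blood cells. A gene whose change is the same in both tissues gives a difference of 0 here, whatever its size.

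The tissues matched their labels by marker genes. Of 10 hepatocyte markers on the arrays 8 were above background in liver (Tat, a liver transaminase, on 0 of 7 livers) and 5 in heart. Of 9 cardiomyocyte markers 9 were above background in heart and 2 in liver. The authors' values had been scaled separately in the tissues, with a median intensity between 113.105 and 113.112 on the livers and between 8.04 and 8.08 on the hearts, so levels are not compared between tissues, and only changes are. The median background-corrected intensity of the probes described was 43.2 in liver and 96.5 in heart. Replicates of a group correlated at Pearson 0.981 to 0.993 across probes, and the number of arrays limits the precision. Each array within a tissue was a separate mouse, so the p-values measure the spread between mice.

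The genotype change differed between the tissues at 233 of 11426 probes, or 2.04% (limma, Benjamini-Hochberg adjusted p below 0.05). At 120 probes (1.05%) the liver change was the higher and at 113 (0.989%) the lower. The 233 probes named 203 genes, 103 higher and 100 lower, and 19 of them had no symbol. The size of the difference ran from 0.52 to 4.48 on the log2 scale, with a median of 0.93. At 211 of the 233 probes the signs were opposite in the tissues, 107 with a positive liver and a negative heart change and 104 the other way round. The probes were chosen by the size of the difference, which itself favours opposite signs, so this count is a description only. The heart change was the larger in size at 132 of the 233.

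Few of these differences came with a call in liver. Of the 233 probes, 108 also passed the test within the heart (56 with the liver change higher, 52 lower), 7 within the liver, 0 within both and 118 within neither. Within the tissues 367 of 18514 probes tested in heart (1.98%) and 12 of 11958 in liver (0.1%) changed with genotype, each adjusted over that tissue's probes. Of these calls, 273 in heart and 12 in liver lay among the 11426 probes measured in both tissues (2.39% and 0.105% of them). The liver had 3 mutants against 4 in heart, and the median residual SD over these probes was 0.190 in liver and 0.155 in heart. The SD of the changes was 0.237 in liver and 0.245 in heart, so the counts of calls do not compare the sizes of the changes. Of the 273 heart calls 108 differed between tissues, and 131 had the same sign in liver. Across the 11426 probes the liver and heart changes correlated at Pearson -0.0145 and Spearman -0.0127, a description over probes that are not independent. The 95% interval of the difference lay within 1 log2 unit of 0 for 91.0% of the probes, and the median SE was 0.188.

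With each mouse as a fixed block, which needs both tissues and so left out mutant heart 4, the count was 92, of which 83 were among the 233. Leaving out 1 array at a time gave 135 to 273 probes, with the count more than 1.5 times lower without mutant heart 1 (135), wild-type heart 3 (136), wild-type heart 1 (147), mutant heart 3 (147), wild-type liver 1 (152), mutant heart 2 (155) or mutant liver 3 (155).

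**Figure D1:**
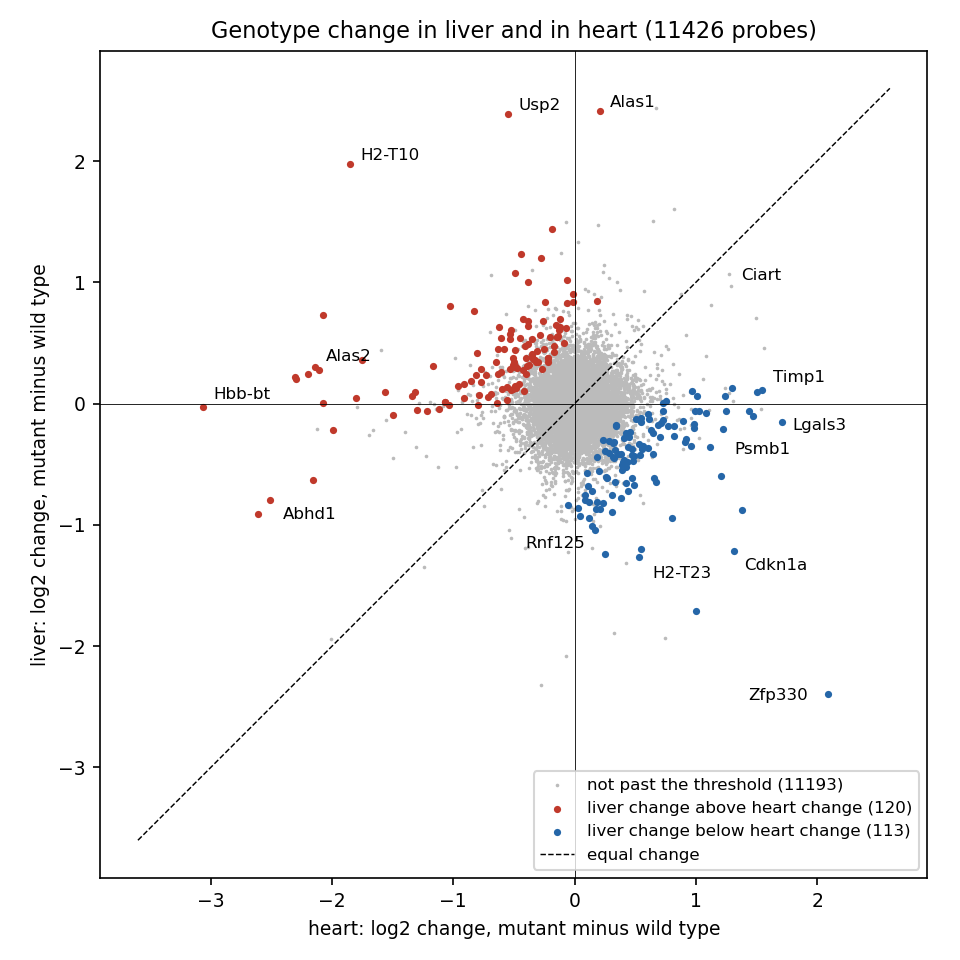
The log2 change in heart (x axis) against that in liver (y axis), mutant minus wild type, for 11426 probes. Red points (120) are probes whose liver change was higher and blue points (113) those whose liver change was lower by the test, grey points did not pass it, and the dashed line marks equal changes. Ciart lies near the line, Usp2 and Alas1 stand out by their liver change, and Alas2 and Hbb-bt by their heart change.

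Some clock genes differed with the liver change higher. Usp2, a ubiquitin protease with a strong daily rhythm, had the smallest p of all. Its log2 values were 4.43, 4.28, 4.52 and 4.71 in the wild-type livers, 6.60, 6.72 and 7.29 in the mutant livers, 10.48, 10.90, 11.01 and 11.02 in the wild-type hearts and 9.87, 10.49, 10.65 and 10.19 in the mutant hearts. All mutant livers lay above all wild-type livers, while the hearts overlapped, with mutant hearts 1 and 4 below the wild-type range. Usp2 was above background on 3 of 4 wild-type and 3 of 3 mutant livers, so its wild-type level there lay near background. Usp2 rose by 2.39 ± 0.18 (SE) in liver (limma adjusted p = 0.000268), the heart change was -0.55 ± 0.17 (adjusted p = 0.134), and the difference was 2.94 ± 0.26 (adjusted p = 2.76e-05). Without background correction and with a floor of 16 the difference was 1.43. The liver background, with a mode near 110, lies above this floor and stays in the values. It lessens log2 changes in liver, so this alternative does not treat the tissues alike.

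Per2, a repressor in the negative limb of the clock, separated the genotypes in both tissues in opposite directions. The wild-type livers read 6.18, 5.83, 6.68 and 6.89 and the mutant livers 7.31, 7.67 and 7.90, whereas the wild-type hearts read 9.67, 9.83, 9.63 and 9.66 and the mutant hearts 8.99, 9.32, 9.20 and 9.51. No mutant overlapped a wild-type mouse in either tissue. The difference was 1.68 ± 0.28 (limma adjusted p = 0.00653), from a liver change of 1.23 and a heart change of -0.44, neither of which passed the test within its tissue. The other Per2 probe gave 1.56 with the same adjusted p.

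Tef, a PAR-domain transcription factor that binds D-box elements, followed Usp2. The wild-type livers read 6.23, 6.06, 6.03 and 6.92 and the mutant livers 7.26, 7.59 and 7.68, against 9.27, 9.03, 9.31 and 9.21 in the wild-type and 8.81, 8.82, 8.88 and 9.19 in the mutant hearts. All mutant livers were above the wild type, and in heart only mutant heart 4 reached the wild-type range. The difference was 1.48 ± 0.24 (limma adjusted p = 0.00653), and 0.95 with the floor. For Per3, another period gene, it was 1.06 ± 0.20 (adjusted p = 0.0117), from 0.68 in liver and -0.38 in heart, and with the floor 0.63 (adjusted p = 0.0860). In liver Per3 was above background on 2 of 4 wild-type and 3 of 3 mutant arrays. It passed the filter there only with the mutants, where it was high, so its liver change supports nothing.

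In the positive limb the sign was turned. Arntl, the partner of Clock, read 6.62, 6.62, 5.64 and 6.26 in the wild-type and 5.41, 5.31 and 5.45 in the mutant livers, and 4.58, 4.97, 4.35 and 4.34 in the wild-type and 4.95, 5.07, 4.80 and 4.68 in the mutant hearts. All mutant livers were below all wild-type livers and the hearts overlapped. The difference was -1.21 ± 0.27 (limma adjusted p = 0.0310), and it kept its call in 6 of 15 fits with 1 array left out, which gave values between -1.42 and -1.10 and adjusted p up to 0.0663. With the floor it was -0.35 (adjusted p = 0.0956).

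Nr1d1, a nuclear receptor that represses Arntl, differed through the heart. It read 5.86, 5.35, 5.83 and 5.87 in the wild-type and 5.73, 5.69 and 5.94 in the mutant livers, and 5.63, 5.49, 5.62 and 5.06 in the wild-type and 7.08, 6.81, 6.70 and 6.18 in the mutant hearts. The livers overlapped, and every mutant heart was above every wild-type heart. Nr1d1 rose by 1.24 ± 0.18 in heart (limma adjusted p = 0.00501) with a liver change of 0.06, a difference of -1.18 ± 0.26 (adjusted p = 0.0261), and its other probe gave -1.17. The call was kept in 11 of 15 fits with 1 array left out, the highest adjusted p being 0.0582.

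Ciart, a repressor of Clock and Arntl, rose in both tissues, and its 2 probes were the only ones called in both. It read 4.18, 4.50, 4.47 and 4.49 in the wild-type and 5.36, 5.37 and 5.40 in the mutant livers, and 6.69, 6.75, 6.91 and 6.16 in the wild-type and 7.93, 7.75, 8.02 and 7.96 in the mutant hearts. All mutants were above all wild-type mice in both tissues. It rose by 0.97 ± 0.13 in liver and 1.29 ± 0.15 in heart, with a difference of -0.32 ± 0.20 (95% interval -0.74 to 0.09, limma adjusted p = 0.455). The other probe gave a difference of 0.03 (interval -0.35 to 0.40). The first value was -1.24 with the floor (adjusted p = 0.00922) and -0.60 with an offset of 50 (adjusted p = 0.0247). In liver the first probe was above background on 3 of 4 wild-type and 3 of 3 mutant arrays, the other on 1 of 4 and 3 of 3. The other probe thus passed the liver filter only with the mutants, where it was high, and its difference supports nothing. So near background the size of the liver rise is uncertain, and an equal change in the tissues is not shown.

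Dbp, a D-box factor like Tef and outside the naming rule, was looked up after its values were seen. It was higher in all mutants of both tissues, by 2.44 in liver and 0.67 in heart. The difference of 1.76 ± 0.52 did not pass the test (adjusted p = 0.0938).

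Of 19 clock genes measured, 4 differed with the liver change higher and 2 with it lower. Among all 8130 genes at 1 probe per gene these shares were 1.14% and 1.01%. Since Per3 was kept through its high group, the count of 4 is a description only. The median difference of the 19 was 0.03, against -0.0064 over all genes, and 10 were positive and 9 negative.

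**Figure D2:**
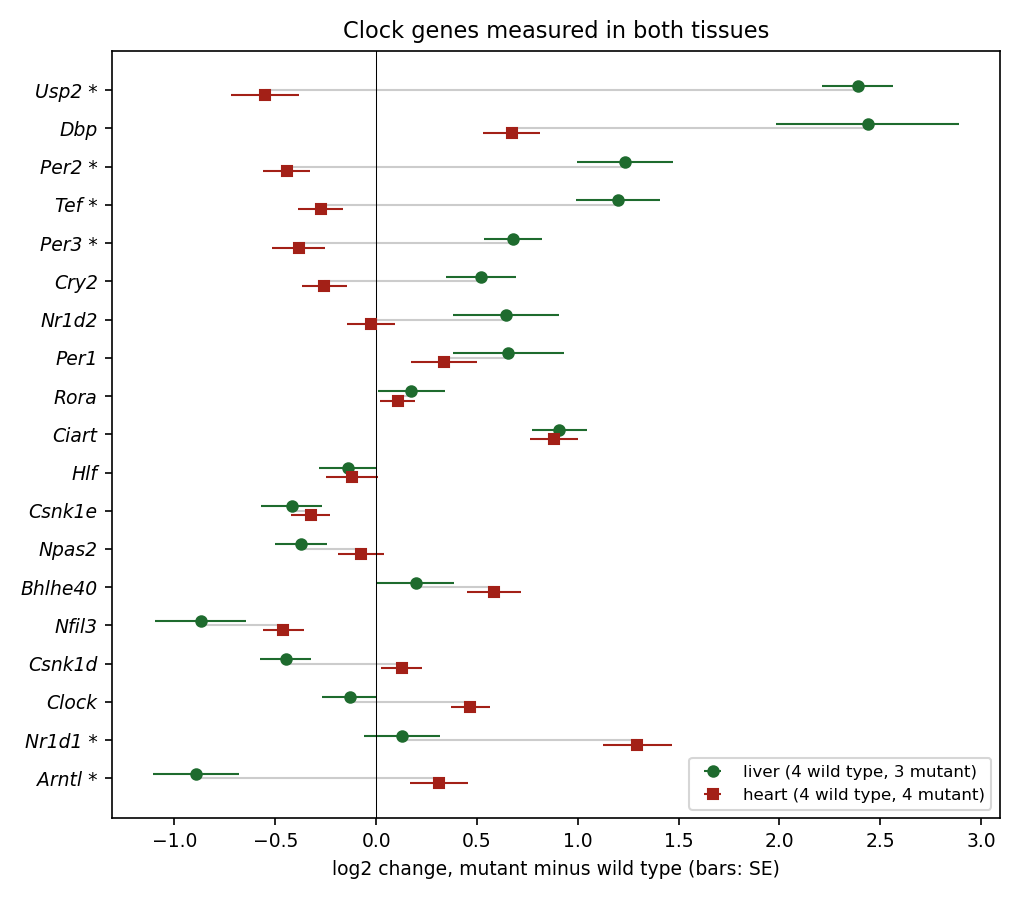
Log2 changes (mutant minus wild type, x axis, bars are SE) of 19 clock genes in liver (green circles, 4 wild-type and 3 mutant) and heart (red squares, 4 and 4), ordered by the difference, with a star where it passed the test. Usp2, Per2, Tef and Per3 lie to the right in liver and to the left in heart, Arntl the other way, and Ciart has nearly the same change in both. In wild-type livers Usp2, Per3 and Ciart were near background.

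The promoters of 4 of these genes are shown because the genes differ in how the tissues compare: Per3 and Tef with the liver change higher, Arntl with it lower, and Ciart with a difference that did not pass the test. The sequences are the 250 bases before the start of a RefSeq transcript on the gene's strand (build GRCm38.p6), from chr4:151044666-151044915 (minus strand, Per3), chr15:81811164-81811413 (plus strand, Tef), chr7:113207215-113207464 (plus strand, Arntl) and chr3:95882229-95882478 (minus strand, Ciart). Capitals mark matches on either strand. They mark the E-box CACGTG bound by Clock and Arntl and the D-box (TTATGTAA or TTACGTAA) bound by Dbp and Tef. They also mark TNGGTCA with any base at N, called RORE-like here. This pattern is looser than the RORE bound by Nr1d1, so a match need not be such a site.
Per3: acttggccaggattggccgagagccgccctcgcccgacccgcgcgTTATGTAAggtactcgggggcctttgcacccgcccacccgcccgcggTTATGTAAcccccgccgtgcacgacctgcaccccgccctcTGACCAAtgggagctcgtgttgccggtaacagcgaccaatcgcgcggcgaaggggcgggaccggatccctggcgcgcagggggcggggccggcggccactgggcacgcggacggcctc
Tef: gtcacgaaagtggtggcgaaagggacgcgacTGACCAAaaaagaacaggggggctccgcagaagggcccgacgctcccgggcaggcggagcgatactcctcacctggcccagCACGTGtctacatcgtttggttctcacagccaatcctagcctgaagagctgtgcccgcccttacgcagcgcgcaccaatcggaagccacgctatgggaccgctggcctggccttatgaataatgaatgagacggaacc
Arntl: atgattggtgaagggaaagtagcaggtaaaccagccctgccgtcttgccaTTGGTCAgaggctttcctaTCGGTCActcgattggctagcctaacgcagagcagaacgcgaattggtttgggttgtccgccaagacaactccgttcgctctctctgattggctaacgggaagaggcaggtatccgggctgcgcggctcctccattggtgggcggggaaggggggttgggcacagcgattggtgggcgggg
Ciart: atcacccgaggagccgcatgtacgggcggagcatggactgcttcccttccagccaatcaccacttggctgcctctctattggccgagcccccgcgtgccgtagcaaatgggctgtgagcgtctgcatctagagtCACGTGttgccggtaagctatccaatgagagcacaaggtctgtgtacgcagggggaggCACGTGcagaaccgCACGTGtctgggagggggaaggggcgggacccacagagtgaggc

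Ciart held 3 E-boxes, Per3 2 D-boxes and 1 RORE-like match, this Tef promoter 1 E-box and 1 RORE-like match, and Arntl 2 RORE-like matches. RefSeq promoters were matched for 16 of the 19 clock genes (24 promoters), of which 4 held the E-box, 1 the D-box and 6 the RORE-like letters. Of all 32851 mouse promoters of this length 6.02%, 0.931% and 9.19% held them. A match is a description of letters and says nothing of binding. Usp2 was among the genes with none of these letters in the window, and for Per2 only the name is given.

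Both forms of the enzyme that starts heme synthesis differed between the tissues, Alas1 through the liver and Alas2 through the heart. Alas1 read 9.02, 9.91, 8.80 and 9.74 in the wild-type and 11.87, 11.62 and 11.84 in the mutant livers, and 11.64, 11.55, 11.46 and 11.54 in the wild-type and 11.93, 11.53, 11.68 and 11.87 in the mutant hearts. The mutant livers were all higher and the hearts overlapped. Alas1 rose by 2.41 ± 0.24 in liver (limma adjusted p = 0.00357), the heart change was 0.21 ± 0.11 (adjusted p = 0.387), and the difference was 2.20 ± 0.28 (adjusted p = 0.000743).

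Alas2 read 9.38, 9.35, 9.58 and 9.51 in the wild-type and 9.18, 10.06 and 10.03 in the mutant livers, and 12.49, 13.08, 12.19 and 13.36 in the wild-type and 10.76, 11.00, 10.39 and 10.41 in the mutant hearts. Every mutant heart was below every wild-type heart, and the livers overlapped, with mutant liver 1 the lowest. Alas2 fell by 2.14 ± 0.23 in heart (limma adjusted p = 0.000779), and the difference was 2.44 ± 0.34 (adjusted p = 0.00198). Fech, which inserts iron in the last step of the pathway, fell by 1.49 in heart (adjusted p = 0.00534) and gave a difference of 1.40 ± 0.30 (adjusted p = 0.0214, and 0.0858 with each mouse as a fixed block). Its other probes gave 1.17 and 0.25 and did not pass.

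Of 17 genes of heme synthesis, breakdown and iron measured in both tissues, these 3 differed with the liver change higher and 0 with it lower, against 1.14% and 1.01% of all genes, and the median over the 17 was -0.05. Alas2 also stands among the red-cell genes.

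Of 8 red-cell genes above background in heart, 3 fell and 0 rose by the test, against 1.98% called either way among all probes tested there. Of the 8, 3 had a positive change. Hbb-bt, an adult beta globin, read 6.01, 5.46, 6.57 and 5.59 in the wild-type and 6.18, 5.44 and 6.01 in the mutant livers, and 10.92, 10.83, 11.06 and 12.21 in the wild-type and 9.84, 6.99, 8.97 and 6.96 in the mutant hearts. The livers overlapped, the mutant hearts were all lower, and mutant hearts 2 and 4 were the lowest. The difference was 3.04 ± 0.74 (limma adjusted p = 0.0434, and 0.0507 with the mouse as a fixed block), and the call was kept in 3 of 15 fits with 1 array left out (2.62 to 3.59, adjusted p up to 0.0860). Of 12 other alternatives, the fixed block among them, 6 kept the call (adjusted p up to 0.122).

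Slc4a1, the anion exchanger of the red-cell membrane, fell by 1.76 ± 0.39 in heart (limma adjusted p = 0.0413). It was above background on 0 of 4 wild-type livers and 3 of 3 mutant livers, where its level was at least 1.22-fold higher. It passed the filter in liver only through the mutants, where it was high, so its liver change supports nothing. At 7 of the 233 probes a group had 0 arrays above background. The difference was 2.11 ± 0.50 (adjusted p = 0.0367, and 0.103 with the mouse as a fixed block), and it kept its call in 5 of 15 fits with 1 array left out (1.74 to 2.43, adjusted p up to 0.0873). Of 11 other alternatives, the fixed block among them, 5 kept the Slc4a1 call. E2f2, a cell-cycle factor also used by maturing red cells, read 4.24, 4.63, 4.44 and 4.34 in the wild-type and 4.63, 4.65 and 4.79 in the mutant livers, and 7.46, 7.73, 7.08 and 8.59 in the wild-type and 5.25, 6.17, 5.64 and 5.36 in the mutant hearts. The mutant hearts were all lower. E2f2 fell by 2.11 in heart, and its 2 probes gave differences of 2.39 ± 0.36 (adjusted p = 0.00341) and 2.50. In liver the first probe was near background, above it on 2 of 4 wild-type and 3 of 3 mutant arrays.

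Of 5 red-cell genes measured in both tissues Alas2, Hbb-bt and Slc4a1 differed with the liver change higher, against 1.14% of all genes. Since Slc4a1 was kept through its high group, this count is a description only. Hba-a1, an alpha globin, gave 0.94 and Klf1, a red-cell transcription factor, -0.03, and neither passed the test. The summed intensity of red-cell genes was 36946 to 73902 in the wild-type and 25917 to 30681 in the mutant hearts (8 of 9 genes above background), and 4595 to 6799 in the wild-type and 6290 to 9686 in the mutant livers (5 of 9 genes). The red-cell marker Ahsp has 0 named probes. In whole tissue, fewer cells of a type and less RNA per cell cannot be told apart, and the part of blood held in the tissues in these results was not tested.

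**Figure D3:**
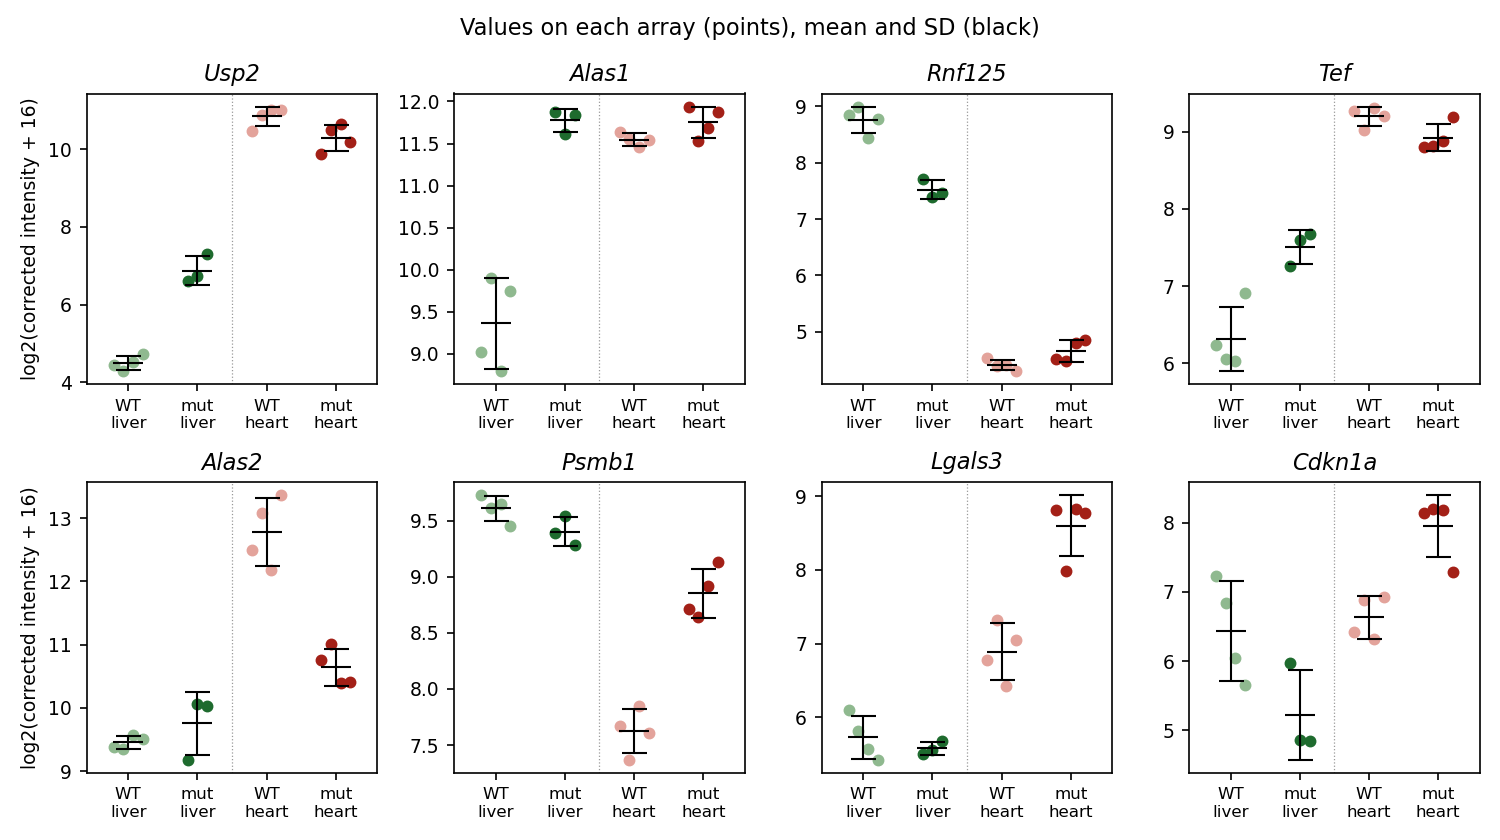
Values on each of the 15 arrays (points, log2 of background-corrected intensity plus 16) with group mean and SD (black) for 8 genes; the axes do not start at 0 and differ between panels, and the dotted line parts liver from heart, which were scaled separately. In Usp2, Alas1, Rnf125 and Tef the genotypes separate in liver, and in Alas2, Psmb1, Lgals3 and Cdkn1a they separate in heart.

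Of 21 genes of the extracellular matrix measured in both tissues, 4 differed with the liver change lower and 0 with it higher, against 1.01% and 1.14% of all genes. In the heart fit 8 of the 21 rose and 0 fell, against 2.39% called either way among probes measured in both tissues. Loxl1, a lysyl oxidase that crosslinks elastin, read 5.42, 5.45, 5.24 and 5.24 in the wild-type and 5.20, 4.72 and 5.22 in the mutant livers, and 9.24, 9.09, 9.06 and 8.96 in the wild-type and 10.05, 10.15, 10.09 and 9.75 in the mutant hearts. Mutants were all higher in heart and all lower in liver, there by a narrow margin. Loxl1 rose by 0.92 ± 0.11 in heart (limma adjusted p = 0.00137), the liver change was -0.29 ± 0.15 (adjusted p = 0.502), and the difference was -1.21 ± 0.18 (adjusted p = 0.00357).

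Timp1, an inhibitor of matrix metalloproteinases, differed through the heart. It read 4.18, 4.41, 4.38 and 4.32 in the wild-type and 4.38, 4.16 and 4.78 in the mutant livers, and 6.05, 6.15, 6.04 and 6.19 in the wild-type and 7.45, 8.13, 7.88 and 7.16 in the mutant hearts. All mutant hearts lay about 1 log2 unit or more above the wild type and the livers overlapped. Timp1 was above background on 2 of 4 wild-type and 2 of 3 mutant livers, so a liver change could hardly show. The difference was -1.44 ± 0.25 (limma adjusted p = 0.00884). Lgals3, a galectin made by macrophages and injured tissue, read 6.10, 5.81, 5.58 and 5.43 in the wild-type and 5.50, 5.56 and 5.68 in the mutant livers, and 6.78, 7.32, 6.42 and 7.05 in the wild-type and 8.82, 7.98, 8.83 and 8.78 in the mutant hearts. It separated the genotypes in heart only, where it rose by 1.71 ± 0.21 (adjusted p = 0.00162), and the difference was -1.86 ± 0.30 (adjusted p = 0.00549).

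The basement-membrane collagens Col4a2 and Col18a1 gave differences of -1.01 ± 0.24 (limma adjusted p = 0.0396) and -0.87 ± 0.22 (adjusted p = 0.0488, and 0.0594 with the mouse as a fixed block). Both rose in heart, by 0.82 and 0.73, while their livers overlapped. These 2 calls were kept in 3 and 2 of 15 fits with 1 array left out, with values of -1.21 to -0.90 and -0.97 to -0.72. A further Col18a1 probe gave -0.14. The 4 matrix calls were Loxl1, Timp1, Col4a2 and Col18a1, 16 of the 21 differences were negative and 5 positive, and the median was -0.38.

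Of 13 macrophage genes measured, Lgals3 was the 1 that differed, against 2.15% of all genes, 11 of the differences were negative, the heart change was positive in 12, and the median difference was -0.22. The summed macrophage intensity was 3738 to 5289 in the wild-type and 4920 to 5179 in the mutant hearts, and 689 to 1391 and 966 to 1029 in the livers, where the groups overlap in both tissues. The macrophage markers Cd68 and Csf1r have 0 named probes. The summed fibroblast intensity overlapped in heart too (11526 to 12460 against 11217 to 12494). By the test 4 of the 15 fibroblast genes rose there and 0 fell, against 1.98% called either way among all probes tested in heart. The sum of endothelial genes was 12588 to 13765 in the wild-type and 14573 to 15982 in the mutant hearts, with 14 of 17 changes positive and 0 called. That of smooth muscle genes was 11811 to 12393 and 13210 to 15769, with 7 of 9 changes positive and 1 called, against the same 1.98%. The part of these cells in the matrix values was not tested.

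The interferon-response genes of the list used here leaned the same way in small steps. All 27 measured had a negative difference, between -1.38 and -0.07 with a median of -0.63, and the heart change was positive in 24 of them and the liver change in 2. Of the 27, 3 passed the test with the liver change lower and 0 with it higher, against 1.01% and 1.14% of all genes. The median stayed between -0.75 and -0.42 in all alternatives run.

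Cxcl9, a chemokine that attracts T cells, read 7.50, 7.76, 7.51 and 7.50 in the wild-type and 7.15, 6.49 and 6.90 in the mutant livers, and 5.95, 6.00, 5.99 and 6.18 in the wild-type and 6.46, 6.66, 6.06 and 6.70 in the mutant hearts. Mutant livers were all lower, and mutant heart 3 was the only mutant heart within the wild-type range. The difference was -1.16 ± 0.22 (limma adjusted p = 0.0137, and 0.0677 with the mouse as a fixed block). Parp14, an ADP-ribosyltransferase, gave -0.93 ± 0.22 (adjusted p = 0.0375, and 0.0615 with the block), and Dhx58, a regulator of viral RNA sensing, -0.89 ± 0.22 (adjusted p = 0.0487, and 0.115 with the block). Both rose in heart, by 0.56 and 0.65, and they kept their calls in 5 and 2 of 15 fits with 1 array left out, with adjusted p up to 0.0854 and 0.0951. Among the other alternatives, the block included, 10 of 13 kept the Parp14 call and 6 of 12 the Dhx58 call. Tnfaip2, a gene induced by tumour necrosis factor, separated the genotypes in opposite directions in the tissues, with a difference of -1.74 ± 0.27 (adjusted p = 0.00507) and -1.27 and -1.02 on its other probes.

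**Figure D4:**
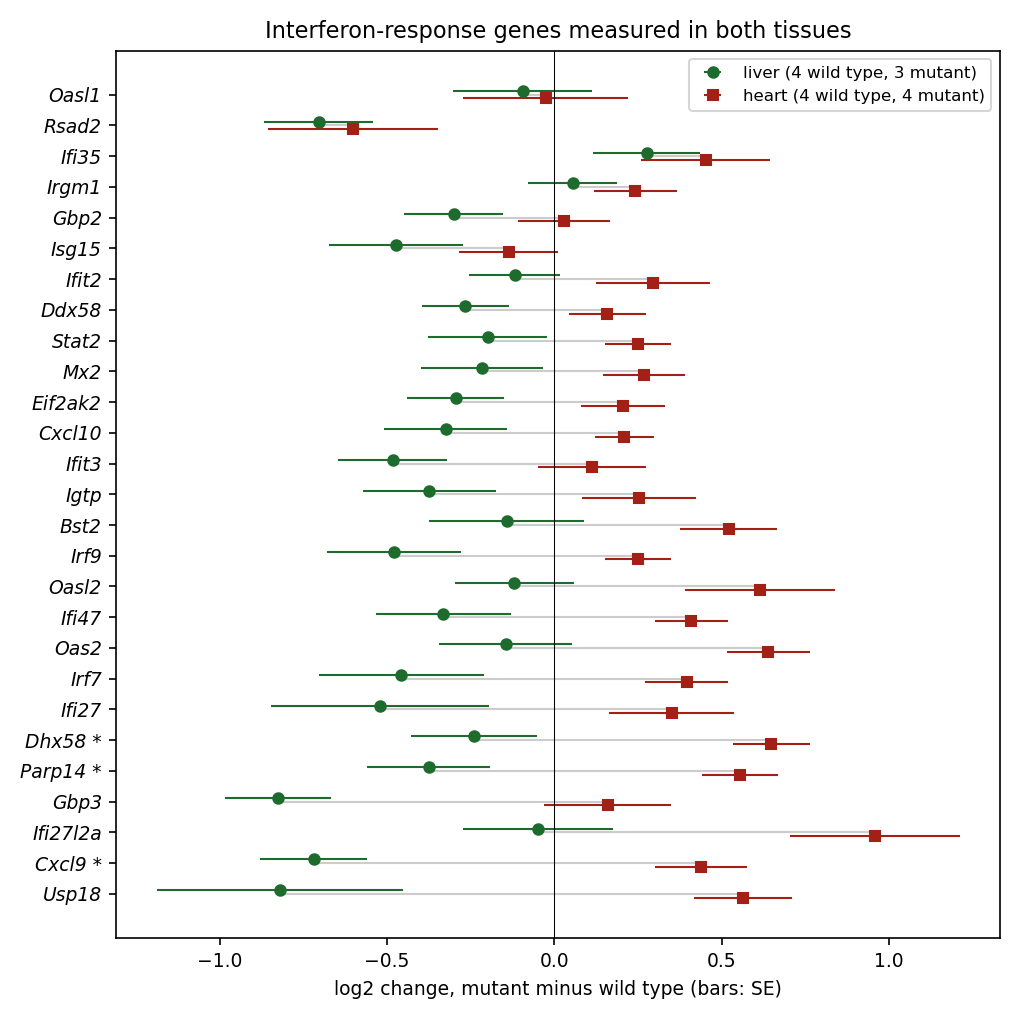
Log2 changes (mutant minus wild type, x axis, bars are SE) of 27 interferon-response genes in liver (green circles, 4 wild-type and 3 mutant) and heart (red squares, 4 and 4), ordered by the difference, with a star where it passed the test (3 genes). In all 27 the heart point lies to the right of the liver point, and in 24 it lies right of 0.

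Among histocompatibility genes, 2 nonclassical class I genes had large differences of opposite sign, with a wide spread among the mutant livers. H2-T10 read 4.20, 4.79, 4.89 and 4.55 in the wild-type and 4.15, 7.57 and 8.02 in the mutant livers, and 6.59, 6.65, 6.54 and 6.33 in the wild-type and 4.80, 4.70, 4.34 and 4.86 in the mutant hearts. Mutant livers 2 and 3 were high and mutant liver 1 was the lowest of all livers, while the mutant hearts were all lower. H2-T10 fell by 1.85 ± 0.13 in heart (limma adjusted p = 2.7e-05), and the difference was 3.82 ± 0.78 (adjusted p = 0.0181), with 3.10 to 5.04 when 1 array was left out. It missed the threshold with a variance trend (0.0681) and with quantile normalization over all arrays (0.0556).

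H2-T23 read 10.02, 10.07, 10.26 and 10.34 in the wild-type and 9.77, 9.18 and 7.78 in the mutant livers, and 7.60, 7.65, 7.54 and 7.82 in the wild-type and 8.09, 7.98, 8.33 and 8.34 in the mutant hearts. Genotypes separated in both tissues, and mutant liver 3 was far below the other livers. The difference was -1.80 ± 0.39 (limma adjusted p = 0.0261, and 0.0835 with the mouse as a fixed block), and it missed the threshold without wild-type heart 3 (0.0520) or mutant heart 3 (0.0512). It also missed the threshold with a variance trend (0.0711), and the other H2-T23 probe gave -2.68 (adjusted p = 0.189). Of 19 antigen-presentation genes these were the 1 higher and the 1 lower call, against 1.14% and 1.01% of all genes, and the median was -0.14. Near-identical H2 genes can share probe sequences, so the gene behind such a probe is uncertain.

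Cdkn1a, the cell-cycle inhibitor p21, had the liver change lower. It read 7.24, 6.83, 6.04 and 5.65 in the wild-type and 5.97, 4.86 and 4.84 in the mutant livers, and 6.42, 6.88, 6.32 and 6.93 in the wild-type and 8.14, 8.19, 8.19 and 7.28 in the mutant hearts. The mutant hearts were all higher, and mutant liver 1 lay within the wild-type range. Cdkn1a rose by 1.31 ± 0.21 in heart (limma adjusted p = 0.00777), the liver change was -1.22 ± 0.37 (adjusted p = 0.250), and the difference was -2.53 ± 0.47 (adjusted p = 0.0117), with -1.31 on its other probe. Bbc3, a cell-death gene, gave -0.88 ± 0.19 (adjusted p = 0.0261, and 0.0741 with the mouse as a fixed block), with all mutant livers lower and the hearts overlapping. It kept its call in 11 of 15 fits with 1 array left out (-1.03 to -0.69), and its other probes gave -0.42 and -0.07. Of 12 p53 targets these 2 differed, against 2.15% of all genes, while 7 of the 12 differences were positive and the median was 0.08.

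Several enzymes of intermediary metabolism changed in heart and not by the test in liver. Fah, the last enzyme of tyrosine breakdown, read 13.00, 12.72, 12.55 and 12.81 in the wild-type and 12.93, 12.90 and 12.76 in the mutant livers, and 9.66, 9.80, 9.09 and 9.17 in the wild-type and 10.57, 10.91, 11.00 and 11.27 in the mutant hearts. The mutant hearts were all higher and the livers overlapped. Fah rose by 1.50 ± 0.18 in heart (limma adjusted p = 0.00128), and the difference was -1.41 ± 0.24 (adjusted p = 0.00837). Bdh1, a ketone-body dehydrogenase, rose by 1.01 in heart and gave -0.95 ± 0.16 (adjusted p = 0.00837). Gstt1, a glutathione transferase, fell by 0.91 in heart and gave 0.96 ± 0.17 (adjusted p = 0.00884). In each of these genes the hearts separated by genotype and the livers overlapped.

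In lipid metabolism 2 named genes differed with the liver change higher. Dgat2, which makes triglycerides, fell by 0.64 in heart (limma adjusted p = 0.0357), was above the wild type in all mutant livers and gave 0.98 ± 0.20 (adjusted p = 0.0168). Slc25a20, the mitochondrial carnitine carrier, fell by 0.49 in heart and gave 0.64 ± 0.16 (adjusted p = 0.0449, and 0.0916 with the mouse as a fixed block), a call kept in 1 of 15 fits with 1 array left out (0.56 to 0.73). Its other probe gave 0.22. Of 20 genes of fatty acid oxidation under PPAR-alpha 1 differed, 16 were positive and the median was 0.24. Of 17 lipogenesis genes 1 differed, 13 were positive and the median was 0.20. Of 18 cholesterol synthesis genes 0 differed (0 at an unadjusted p below 0.05 in limma), 15 were negative and the median was -0.24. Against 2.15% called among all genes these counts are not a result about the lists.

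Creb3l2, a membrane-bound transcription factor of the secretory pathway, read 5.04, 5.25, 4.84 and 5.33 in the wild-type and 4.83, 4.37 and 4.36 in the mutant livers, and 6.26, 6.14, 5.84 and 5.96 in the wild-type and 7.23, 7.03, 7.46 and 7.29 in the mutant hearts. Mutants were all lower in liver, by a narrow margin, and all higher in heart. It rose by 1.21 ± 0.12 in heart (limma adjusted p = 0.000525), and the difference was -1.80 ± 0.21 (adjusted p = 0.000404), but -0.38 on its other probe and -1.17 with an offset of 50.

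Rnf125, a ubiquitin ligase that acts on viral RNA sensors, differed through the liver. It read 8.85, 8.99, 8.44 and 8.77 in the wild-type and 7.71, 7.39 and 7.46 in the mutant livers, and 4.54, 4.39, 4.41 and 4.30 in the wild-type and 4.52, 4.48, 4.79 and 4.85 in the mutant hearts. The mutant livers were all lower and the hearts overlapped. Rnf125 fell by 1.24 ± 0.15 in liver (limma adjusted p = 0.0173), and the difference was -1.49 ± 0.19 (adjusted p = 0.000743). It was -0.93 with the floor and -0.71 on the other probe. In heart Rnf125 was near background, above it on 3 of 4 wild-type and 4 of 4 mutant arrays. The other probe was above background on 1 of 4 and 2 of 4 hearts. A heart change of Rnf125 could hardly show at this level. Rnf144a, another ubiquitin ligase, gave -1.06 ± 0.17 (adjusted p = 0.00539), and -0.63 (adjusted p = 0.0671) with the floor.

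Psmb1, a subunit of the proteasome core, read 9.73, 9.61, 9.64 and 9.45 in the wild-type and 9.39, 9.54 and 9.28 in the mutant livers, and 7.67, 7.37, 7.85 and 7.61 in the wild-type and 8.71, 8.64, 8.92 and 9.13 in the mutant hearts. The mutant hearts were all higher and the livers overlapped. Psmb1 rose by 1.23 ± 0.13 in heart (limma adjusted p = 0.000779), and the difference was -1.43 ± 0.18 (adjusted p = 0.000743). Psme3, a subunit of a proteasome activator and no member of the proteasome list, went the other way in both tissues, with a difference of 1.06 ± 0.17 (adjusted p = 0.00539). Of 25 proteasome genes Psmb1 was the 1 that differed, near the share of 2.15% among all genes, and the median was -0.12.

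The histone deacetylases Hdac4 and Hdac11 were lower in all mutant hearts and higher in all mutant livers. Both fell in heart, by 0.58 and 0.49, and the differences were 1.03 ± 0.18 and 0.80 ± 0.14 (limma adjusted p = 0.00892 and 0.00837). Hr, a histone demethylase, rose by 0.99 in heart and gave -1.05 ± 0.18 (adjusted p = 0.00728, and 0.0576 with the mouse as a fixed block). Angptl7, a secreted angiopoietin-like protein, fell by 1.56 ± 0.17 in heart (adjusted p = 0.000814), with no overlap between the hearts, and gave 1.65 ± 0.23 (adjusted p = 0.00198). In liver Hr was above background on 2 of 4 wild-type and 1 of 3 mutant arrays, and Angptl7 on 1 and 2. A liver change of these genes could hardly show so near background.

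Id2, Trip6, Ppl and Ncbp2 also differed through the liver, where all mutants lay on one side of the wild type while the hearts overlapped. Id2, an inhibitor of helix-loop-helix factors, fell by 0.87 in liver and gave -1.08 ± 0.19 (limma adjusted p = 0.00884), but 0.05 on its other probe. Its value with the floor was -0.99 (adjusted p = 0.0733). Trip6, a focal-adhesion protein, rose by 0.83 in liver and gave 0.89 ± 0.16 (adjusted p = 0.00892, and 0.0576 with the mouse as a fixed block), but -0.01 on its other probe. With the floor Trip6 gave 0.38 (adjusted p = 0.130). Ppl, a protein of cell junctions, rose by 1.02 in liver and gave 1.08 ± 0.21 (adjusted p = 0.0152), and 0.35 (adjusted p = 0.451) with the floor. Ncbp2, part of the mRNA cap-binding complex, rose by 0.85 in liver and gave 0.67 ± 0.14 (adjusted p = 0.0250, and 0.0916 with the block), but -0.052 with the floor, and it missed the threshold without wild-type heart 2 (0.0533) or mutant heart 1 (0.0509). Egr2, an immediate early factor, separated the genotypes in both tissues, lower in all mutant livers and higher in all mutant hearts. Its changes were -0.33 in liver and 0.53 in heart, neither past the test within its tissue. The difference was -0.86 ± 0.18 (adjusted p = 0.0214). Egr2 gave -0.40 (adjusted p = 0.296) with the floor, and its adjusted p was 0.0515 without mutant liver 3. It was the 1 of 14 immediate early genes that differed, against 2.15% of all genes, and the median was 0.11.

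Besides Ciart, 3 genes that changed in liver did not differ from heart by the test. Tagap, a GTPase-activating protein of T cells, rose by 0.94 in liver and was also above the wild type in all mutant hearts, by 0.37. Its difference was 0.56 (95% interval 0.25 to 0.88, limma adjusted p = 0.0591), and 0.69 (0.0165) without mutant liver 1. Man1a, a mannosidase of the Golgi, fell by 0.76 in liver with a difference of -0.69 (interval -1.13 to -0.25, adjusted p = 0.102). Pdk4, a kinase that switches off pyruvate dehydrogenase, fell by 1.11 in liver with a heart change of -0.52 and a difference of -0.58 (interval -1.08 to -0.085, adjusted p = 0.234). With the floor the Pdk4 difference was 0.15.

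Abhd1 and Zfp330 were looked up after their values were seen. Abhd1, an alpha/beta hydrolase, is among the 22 called probes with the same sign in both tissues. On its probe with the smallest p it read 8.02, 7.81, 8.09 and 7.04 in the wild-type and 7.12, 7.05 and 6.66 in the mutant livers, and 7.61, 7.16, 7.65 and 6.77 in the wild-type and 4.78, 4.49, 5.04 and 4.84 in the mutant hearts. The mutant hearts were far below the wild type, and mutant livers overlapped with the lowest wild-type liver only. It fell by 2.51 in heart against a liver change of -0.80, and its 3 probes gave differences of 1.71, 1.70 and 1.53, all past the threshold.

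Zfp330, a nucleolar zinc-finger protein, had the largest difference past the threshold, -4.48 ± 1.12 (limma adjusted p = 0.0486), and single mice decided it. It read 8.03, 7.79, 6.99 and 7.07 in the wild-type and 6.83, 4.22 and 4.19 in the mutant livers, and 4.14, 4.11, 7.88 and 7.73 in the wild-type and 7.73, 8.93, 7.72 and 7.85 in the mutant hearts. The values fell near 4 or near 7 to 9, and the arrays near 4 were mutant livers 2 and 3 and wild-type hearts 1 and 2. The same mice were not near 4 in their other tissue. The other Zfp330 probe gave -0.57 (adjusted p = 0.0582), with no value near 4.

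**Figure D5:**
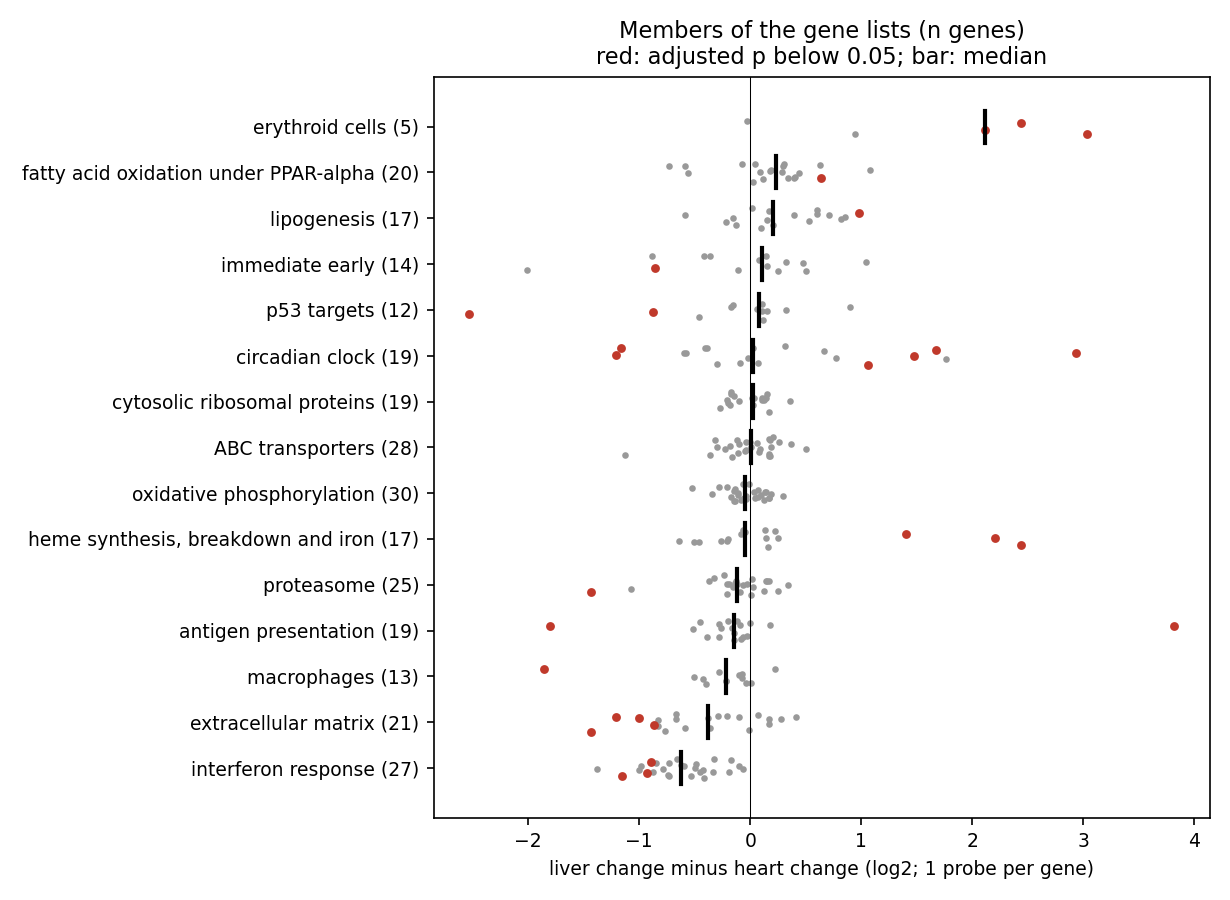
The liver change minus the heart change (x axis, log2) of each measured member of 15 gene lists, 1 probe per gene, with the number of genes in brackets, the median as a black bar and members past the threshold in red. Of 5 red-cell genes 4 lie to the right of 0, interferon-response genes lie left of 0 throughout (median -0.63), and oxidative phosphorylation, ribosomal protein and ABC transporter genes centre near 0.

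Some large systems showed no difference by the test. None (0) of 30 genes of oxidative phosphorylation, 19 cytosolic ribosomal proteins or 28 ABC transporters, the family of Abcb5, passed the threshold in limma, while 1, 1 and 3 of them had an unadjusted p below 0.05. Their median differences were -0.05, 0.03 and 0.00. In oxidative phosphorylation the differences ran from -0.53 to 0.30, in the ribosomal proteins from -0.27 to 0.36, and in the ABC transporters from -1.13 to 0.50. Against a share of 2.15% called among all genes, 0 of 19 to 30 is not a result about these lists.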

How the data were processed

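Total RNA of liver and heart was extracted with Trizol and a column, and biotin-labelled cRNA was hybridised to Illumina bead arrays, per the labels' protocols. Per the submitters' processing notes GenomeStudio 2011.1 was used. The values used are linear intensity per probe, as the authors deposited them, with a normalization that the sources used here do not give. The planned use of a non-normalized table was dropped, since its 15 columns matched no sample label, and it was not analysed here.

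The background of each array was taken as the mode of its low values with the SD below it. Values were corrected with the normexp model, 16 was added and log2 taken (R 4.3.3, limma 3.58.1, statmod 1.5.0). A probe was above background on an array at p below 0.05 under that normal distribution, and was kept when this held on at least 3 arrays of each tissue. Log2 changes of dim probes are understated by the added 16. One limma fit of the means of the 4 groups over 15 arrays gave the tissue difference of the genotype change with its SE, and p-values were adjusted over all 11426 probes (Benjamini-Hochberg, threshold 0.05). Changes within a tissue come from a fit of that tissue over all probes measured there (11958 in liver, 18514 in heart), where 12 (0.1%) and 367 (1.98%) passed. In simulated data for this comparison the fit recovered 80.6% of 98 differences of 1 log2 unit and 100% of 102 of 2, with 11 false calls in 192. The changes were added to mutant livers on the final log2 scale, with independent normal noise on each array. The understatement of dim probes was not simulated, so the recovery does not speak for them.

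The animal numbers pair the tissues of 7 mice. The deviations of paired tissues from their group means correlated at -0.0376 to 0.0528, and the consensus correlation was 0.0118. Named genes are, with 1 probe per gene, the 12 with the smallest p in each direction, those called in liver, and up to 4 called members of each list described, with those of opposite sign; Dbp, Abhd1 and Zfp330 were added after their values were seen. The members, the lists and the tests were chosen with earlier results of these data known. Lists are described by the brightest probe of each gene, with no set test. Gene symbols come from the platform annotation, updated through RefSeq. The alternatives were the mouse as a block, array weights per tissue, a variance trend with robust fitting, other offsets, a floor of 16 with no background correction, quantile normalization, other filters and leaving out each array. The floor acts on heart values, while the liver background of about 110 stays in and lessens log2 changes there.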

Additional observations from a re-analysis of the deposited data

Results flagged for a closer look

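Each difference below is the log2 change in liver minus that in heart, and stands here because the test of the difference itself passed the threshold (limma, Benjamini-Hochberg, 4 wild-type and 3 mutant livers, 4 and 4 hearts). No cause was tested for any of them.

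Clock genes with the liver change higher were Usp2 (2.94), Per2 (1.68), Tef (1.48) and Per3 (1.06, kept in liver through the mutants). Those with the liver change lower were Arntl (-1.21) and Nr1d1 (-1.18). The named heme and red-cell genes were Alas1 (2.20), Alas2 (2.44), Fech (1.40), Slc4a1 (2.11, above background in liver in mutants only), Hbb-bt (3.04) and E2f2 (2.39). The named matrix genes were Loxl1 (-1.21), Timp1 (-1.44), Col4a2 (-1.01) and Col18a1 (-0.87), and the macrophage gene Lgals3 gave -1.86. The named interferon and inflammation genes were Cxcl9 (-1.16), Parp14 (-0.93), Dhx58 (-0.89) and Tnfaip2 (-1.74). The class I genes H2-T10 (3.82) and H2-T23 (-1.80) had opposite signs.

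The p53 targets Cdkn1a (-2.53) and Bbc3 (-0.88) and the immediate early gene Egr2 (-0.86) were lower. Among metabolic genes the values were Fah (-1.41), Bdh1 (-0.95), Gstt1 (0.96), Dgat2 (0.98) and Slc25a20 (0.64). Among genes of protein turnover they were Rnf125 (-1.49), Rnf144a (-1.06), Psmb1 (-1.43) and Psme3 (1.06). The regulators gave Creb3l2 (-1.80), Hr (-1.05), Id2 (-1.08), Hdac11 (0.80) and Hdac4 (1.03), and the remaining genes Angptl7 (1.65), Trip6 (0.89), Ppl (1.08) and Ncbp2 (0.67).

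Single arrays stood far from the others of their group for 9 of 144 groups of 4 arrays, where chance gives about 1 in 20. These were Lgals3 in mutant heart 2 (7.98), Bdh1 in mutant heart 2 (9.61), Trip6 in wild-type heart 4 (7.84), Hdac4 in wild-type heart 4 (8.38), Cdkn1a in mutant heart 4 (7.28), Cxcl9 in wild-type liver 2 (7.76), Egr2 in wild-type liver 2 (4.62), Nr1d1 in wild-type liver 2 (5.35), Ciart in wild-type liver 1 (4.18), all as log2 values. Wild-type liver 2 was the array in 3 of them.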

How the results depend on the processing

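The count of 233 probes became 92 with each mouse as a fixed replicate block (mutant heart 4 left out), 143 with an offset of 8 and 365 with a floor of 16 and no background correction, where 44.7% of calls were higher in liver against 51.5%. It was 196 to 336 under the other alternatives, 248 of them with the mouse as a random block. With 1 array left out it ran from 135 (without mutant heart 1) to 273, with 92 probes called each time. Of these 44 were called under every alternative that tested them, 20 of which were tested in all. The liver count of 12 ran from 2 (without wild-type liver 1, mutant liver 2 or mutant liver 3) to 54 (without mutant liver 1), with 6 without wild-type liver 3 and 24 without wild-type liver 4. The heart count of 367 ran from 198 (without wild-type heart 3 or mutant heart 3) to 294, with 211 without wild-type heart 1 and 226 without mutant heart 1. Of 44 named calls 31 held with the fixed block and 31 in all fits without 1 array; the block values that ended a call stand beside the genes, and it ended no other named call. Over 1301 values of named genes 161 lost and 6 gained a call and 2 reversed, both with the floor: Ncbp2 (-0.052) and Pdk4 (0.15). The cause was not tested. List medians stayed within the spread between mice in 399 of 420 cases. The floor left the liver background in the values, so its counts do not compare the tissues alike. How far dim probes limit the liver was not tested.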

Other observations

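Among the 44 probes called under every alternative that tested them (20 were tested in all) were genes not described above, chosen here after their values were seen. Ube2l6, a ubiquitin-like conjugating enzyme, gave a difference of 2.08 ± 0.37 (SE, limma adjusted p = 0.00916) from a heart change of -2.08 and a liver change of 0.01. Ube2l6 was not in the interferon-response list, and its signs were opposite to the 27 negative differences there. Fam220a gave 1.85 with a heart change of -1.80. Bnip3l, a mitophagy receptor needed by maturing red cells, gave 1.25 (adjusted p = 0.0261) with a heart change of -1.30, though not under every alternative. Col6a1, a chain of collagen VI, gave -0.96 ± 0.17 with a heart change of 0.77. Its brighter probe, the one used in the matrix list, did not pass the threshold. Spon2, a secreted matrix protein, gave -1.16 with a heart change of 1.09. Ccn1, a matricellular protein induced by growth factors, went the other way, with 1.08 and a heart change of -1.12.

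Egfr, the receptor of epidermal growth factor, gave -1.75 ± 0.33 (limma adjusted p = 0.0138) from a liver change of -1.20 and a heart change of 0.55, but -0.61, -0.47 and -0.41 on its other probes, none past the threshold. Pex11a, which divides peroxisomes, gave 1.22, and Egln3, an oxygen-sensing hydroxylase, -1.09. Vmp1, a protein of autophagosome formation, gave -1.05 from a liver change of -0.82.

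Of lists not described above, 0 of 18 endoplasmic reticulum stress genes and 0 of 21 acute phase genes passed the threshold, while 2 and 4 had an unadjusted p below 0.05 in limma. Their medians were 0.03 and -0.22, and against 2.15% called among all genes these counts are not a result about the lists. Cyp7b1, a male-biased hydroxylase of liver, gave -0.88 (adjusted p = 0.0212), and was the 1 of 13 genes of the growth hormone and male pattern list that differed.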
